A study of Mus musculus with 5 samples.

Results

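The 45 genes described here drive or mark cell division, and they were taken by symbol from the 28666 genes of the count table. They comprise 10 G1 cyclins, cyclin-dependent kinases (CDKs) and E2F factors, 3 CDK inhibitors, 11 genes of replication licensing and the replicative helicase, 4 genes of nucleotide supply and the sliding clamp, and 17 genes of G2 and mitosis. The membership was set by known function and used no measured value, though earlier results of these data were known when it was set. RNA-seq of whole uterus compared ICR females aged 6 to 8 weeks that had mated with vasectomized C57BL/6 males, so that they received seminal plasma (SP) without sperm. In the aged-SP group (n = 2, replicates 1 and 4) the males were 12 to 18 months old, and in the young-SP group (n = 3, replicates 1, 2 and 4) they were 12 to 14 weeks old. The sample labels place collection 3.5 days after caging and the study's methods place it at 3.0 days post coitum (dpc), before embryos were transferred. The comparison asks whether the age of the seminal plasma donor goes with a difference in the uterus, and the females of both groups were young. A further young-SP sample, which the study set aside as an outlier, was not analysed here.

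Cell division starts in G1, when D-type cyclins with Cdk4 or Cdk6 and then E-type cyclins with Cdk2 release E2F factors to switch on the genes of DNA synthesis. Origins are licensed by loading the MCM helicase, DNA is copied in S phase, and B-type cyclins with Cdk1 then drive mitosis, while inhibitors such as p21 and p27 restrain the kinases. In the mouse uterus, estrogen drives division of the epithelium early in pregnancy, and progesterone then stops it and lets stromal cells divide as implantation nears.

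The promoters of many of these genes carry short words through which E2F and the cell cycle complexes of mitotic genes are known to act, and the following set shows how the promoters differ between roles. Each line gives the 250 bases before the RefSeq start site on GRCm38.p6, 5′ to 3′ on the gene's own strand, with the motif words in capitals. Both strands were searched. The words for E2F were TTCCCGC with its variants TTCGCGC as well as TTGCCGC together with TTGGCGC. The CCAAT box was searched by its name, and the cell cycle homology region (CHR) as TTTGAA or as TTCGAA, and neighbouring words may overlap. Mki67, Top2a and Ccnb2 stand for mitosis, and Mcm5 and Mcm6 for the helicase. Tyms and Cdkn1b are shown because they had the smallest p among the genes with a lower and a higher aged-SP mean.
Mki67, chr7:135716380-135716629, minus strand: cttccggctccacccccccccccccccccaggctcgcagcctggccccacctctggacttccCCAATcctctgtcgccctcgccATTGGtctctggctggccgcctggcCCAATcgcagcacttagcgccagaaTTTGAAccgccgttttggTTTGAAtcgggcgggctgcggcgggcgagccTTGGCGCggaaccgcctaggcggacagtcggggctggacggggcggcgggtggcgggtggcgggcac
Top2a, chr11:99024190-99024439, minus strand: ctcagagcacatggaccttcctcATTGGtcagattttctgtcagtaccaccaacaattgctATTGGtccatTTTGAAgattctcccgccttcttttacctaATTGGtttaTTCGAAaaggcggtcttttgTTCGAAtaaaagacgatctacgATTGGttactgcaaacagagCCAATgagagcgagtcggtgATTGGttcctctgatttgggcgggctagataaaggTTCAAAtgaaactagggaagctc
Ccnb2, chr9:70421555-70421804, minus strand: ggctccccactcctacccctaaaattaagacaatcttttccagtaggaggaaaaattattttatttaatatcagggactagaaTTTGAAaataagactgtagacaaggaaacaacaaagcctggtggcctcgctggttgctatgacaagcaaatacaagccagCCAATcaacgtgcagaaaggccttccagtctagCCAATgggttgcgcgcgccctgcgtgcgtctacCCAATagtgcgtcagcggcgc
Mcm5, chr8:75109259-75109508, plus strand: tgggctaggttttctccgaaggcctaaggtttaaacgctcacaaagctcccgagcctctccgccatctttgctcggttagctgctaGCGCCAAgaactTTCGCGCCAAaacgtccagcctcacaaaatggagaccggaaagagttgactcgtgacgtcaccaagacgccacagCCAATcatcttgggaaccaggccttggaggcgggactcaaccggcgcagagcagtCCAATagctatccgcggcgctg
Mcm6, chr1:128359706-128359955, minus strand: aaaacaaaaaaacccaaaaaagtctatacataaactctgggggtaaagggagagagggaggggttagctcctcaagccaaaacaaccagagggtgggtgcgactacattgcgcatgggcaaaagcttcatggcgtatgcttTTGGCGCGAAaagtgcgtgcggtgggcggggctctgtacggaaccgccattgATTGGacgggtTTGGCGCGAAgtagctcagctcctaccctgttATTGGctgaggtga
Tyms, chr5:30073626-30073875, minus strand: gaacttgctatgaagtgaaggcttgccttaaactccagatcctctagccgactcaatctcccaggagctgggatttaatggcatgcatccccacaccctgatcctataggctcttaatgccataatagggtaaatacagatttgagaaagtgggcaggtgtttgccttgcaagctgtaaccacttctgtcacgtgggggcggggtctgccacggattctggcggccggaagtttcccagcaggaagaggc
Cdkn1b, chr6:134920151-134920400, plus strand: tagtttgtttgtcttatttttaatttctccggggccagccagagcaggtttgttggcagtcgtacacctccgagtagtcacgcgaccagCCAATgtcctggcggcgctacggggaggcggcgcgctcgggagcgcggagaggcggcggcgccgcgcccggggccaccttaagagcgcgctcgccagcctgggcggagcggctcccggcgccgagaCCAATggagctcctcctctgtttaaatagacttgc

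RefSeq entries were at hand for 40 promoters of 36 of the 45 genes, each covering 250 bases before and 50 after the start site. A CCAAT box and a CHR word occurred together in 11 of 13 promoters of the G2 and mitosis genes (84.6%), against 7.52% of the 32851 promoters of all genes. An E2F word occurred in 8 of 10 promoters of the licensing and helicase genes (80%), against 9.57% of all promoters. The CCAAT box is common, at 37.4% of all promoters, and the CHR word occurred in 19.2% of them. No promoter of the CDK inhibitors held a CHR word (0 of 5), and the Tyms window held none of the words searched. These matches are descriptions of letters in the reference sequence and do not show binding in these uteri.

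**Figure D1:**
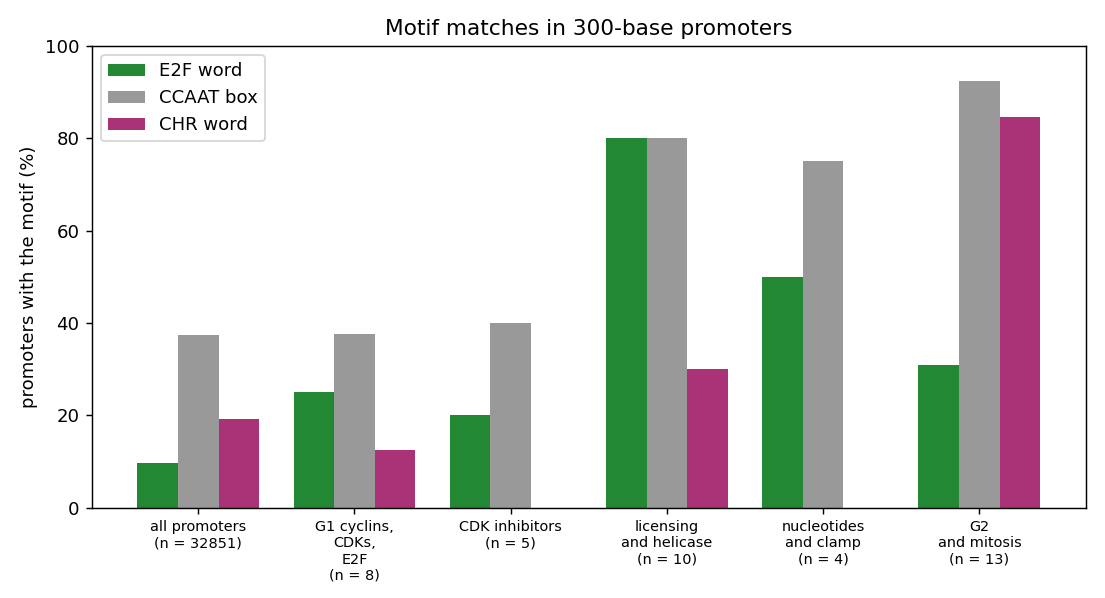
Share of promoters (vertical axis, percent) that held an E2F word, a CCAAT box or a CHR word, for all promoters and for each role of the cell cycle genes, with the number of promoters under each group. The CHR word stood in 84.6% of the mitosis promoters and the E2F word in 80% of the licensing promoters.

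The libraries held 15071914 to 16728601 counts, and every one of the 45 genes passed the filter on low counts, with 55 to 4854 counts per library. Levels are given as CPM, which scale the count of each gene to a common library total with TMM factors, and levels per gene length as FPKM. Of the 17013 genes tested with the edgeR quasi-likelihood test, 26 (0.153%) passed an adjusted p of 0.05 with Benjamini-Hochberg adjustment over all of them. The labels name the 5 libraries as separate samples but not as separate animals, so that p-values measure only the spread between these samples, which may be technical. Among tissue markers, the uterine transcription factor Hoxa10 was at 437 to 519 CPM, while the vaginal keratins Krt5, Krt13 and Krt14 did not exceed 0.563 CPM in any library. Summed oviduct markers were at 52.9 and 121 CPM in the aged-SP libraries and 68.2, 35.9 and 235 CPM in young-SP replicates 1, 2 and 4. Summed ovary markers were at 35.9 and 70.9 against 26.7, 21.5 and 42.5 CPM in the same order. Whether adjoining tissue was present in uneven amounts was not tested. The libraries were made with a kit that does not mark strand. Exons of 17 of the 45 genes overlap another annotated gene, and in 9 more than 10% of the 50-base stretches of their exons occur elsewhere among annotated exons, so that reads of such genes may be split. Of the genes described in full below, Ccnd1, Ccne2, Cdk4, Pcna and Mcm7 are among these 9.

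Young-SP replicate 1 stood apart from the other libraries in the cell cycle genes. It held the highest level of 39 of the 45 genes (86.7%), whereas it was the highest library for 20.6% of all genes tested. Its CPM over the mean of young-SP replicates 2 and 4 had a median of 1.84 across the 45 genes (range 0.899 to 2.90) and of 0.996 across all genes tested. This ratio exceeded 1.5 for 33 of the 45 genes (73.3%) and for 11.4% of all genes. It did so for 17 of 17 genes of G2 and mitosis, 10 of 11 of licensing, 3 of 4 of nucleotide supply and clamp, 3 of 10 of G1 and 0 of 3 CDK inhibitors. Median fold changes by role are therefore given with and without this library, and so are many of the counts and single fold changes.

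**Figure D2:**
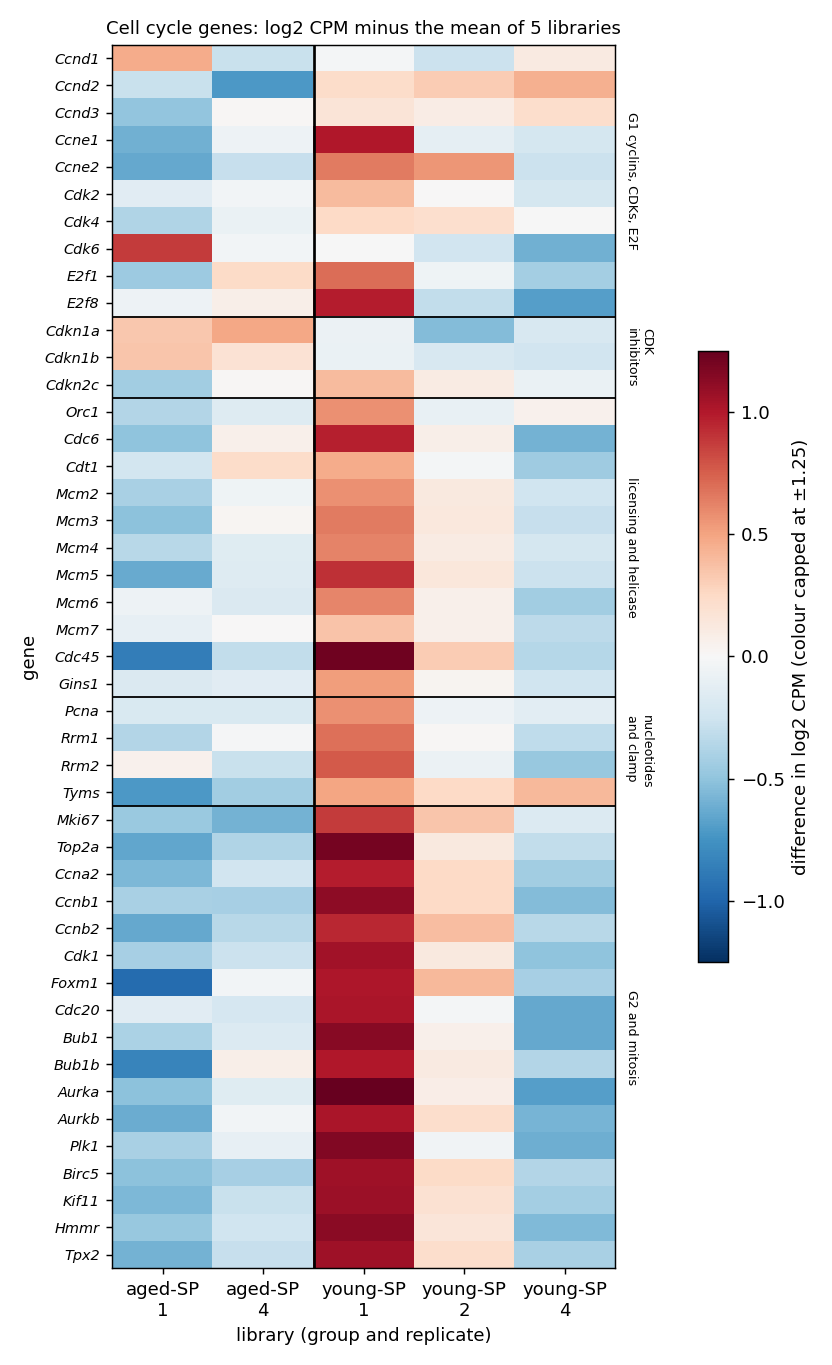
Difference of each gene's log2 CPM from its mean over the 5 libraries, with genes in rows ordered by role, libraries in columns, and red for higher and blue for lower. Young-SP replicate 1 was the highest library for 39 of the 45 genes, and the CDK inhibitors Cdkn1a and Cdkn1b were highest in the aged-SP libraries.

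Markers of several cell types also differed among the young-SP libraries. Summed markers of uterine epithelium (6 genes) were at 1105 and 1171 CPM in the aged-SP libraries and at 1433, 704 and 867 CPM in young-SP replicates 1, 2 and 4. The epithelial surface gene Epcam was at 262 and 235 CPM in the aged-SP libraries, 281 CPM in young-SP replicate 1, and 76.6 and 87.1 CPM in young-SP replicates 2 and 4. The 6 epithelium genes did not all share this pattern. Of them, 4 were highest in young-SP replicate 1, and 2 had a lower aged-SP mean and 4 a higher one. Their log2 fold changes ranged from -0.42 to 1.20. Summed leukocyte markers (8 genes) were at 1005 and 1618 against 1472, 763 and 1050 CPM in the same order. Summed endometrial stroma markers (8 genes) were at 4034 and 5046 against 4119, 5507 and 5995 CPM. Of these stroma genes, 6 had a lower aged-SP mean and 2 a higher one. Summed endothelium markers (6 genes) were lowest in young-SP replicate 1, at 446 CPM, and lay between 561 and 744 CPM in the other libraries. Summed myometrium markers (6 genes) were highest in young-SP replicate 4, at 13530 CPM, and lay between 8502 and 10830 CPM in the other libraries. The gland proteases Prss28 and Prss29 were at 1446 and 764 CPM, and at 2458 and 2137 CPM, in the aged-SP libraries. In young-SP replicate 1 these proteases were at 90.7 and 385 CPM, and in young-SP replicates 2 and 4 neither exceeded 11.6 CPM. The other 3 gland markers did not share this pattern. Cxcl15 was lower in both aged-SP libraries, at 2.90 and 1.92 CPM against 8.69, 20.2 and 8.14 CPM. Spink1 was at 153 CPM in aged-SP replicate 1 and between 7.74 and 12.2 CPM in the other libraries, and the gland factor Foxa2 lay between 8.51 and 14.1 CPM in all libraries. The part of these cell types in the cell cycle values was not tested, and in whole tissue fewer dividing cells and less RNA per cell cannot be told apart.

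Over the 45 genes, 41 had a lower mean in the aged-SP group and 4 a higher one, beside 49.1% lower among all genes tested. The median log2 fold change, aged-SP over young-SP, was -0.49, against 0.01 for all genes. No gene of the 45 passed the adjusted threshold in edgeR (0.153% of all genes did) or in limma-voom. At an unadjusted p under 0.05, 5 of the 45 were lower (Tyms, Ccnd2, Mki67, Cdk4 and Ccne2), beside 9.36% of all genes, and 2 were higher (Cdkn1b and Cdkn1a), beside 9.62% of all genes. Leaving out 1 library changed the lower count to 2 for aged-SP replicate 1 (5.57% of all genes), and to 3, 3 and 19 for young-SP replicates 1, 2 and 4 (11.1%, 6.18% and 7.75% of all genes). DESeq2's Wald test, which called 7.58% of all genes with a test, called 4 of the 45, namely Tyms, Ccnd2 and Mki67 as lower (3.89% of all genes) and Cdkn1b as higher (3.69%).

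The groups did not overlap for 10 genes with lower aged-SP levels (beside 19.3% of all genes) and for 2 with higher levels (beside 19.5%). Without young-SP replicate 1 these counts were 10 and 4, beside 26.9% and 28.5% of all genes. Without that library 31 of the 45 genes had a lower aged-SP mean, beside 49.9% of all genes. The median log2 fold change was then -0.19, whereas with either replicate 4 left out in its place it was -0.74 (aged-SP) and -0.78 (young-SP). Without young-SP replicate 1, Tyms was the only one of the 45 genes that passed the adjusted threshold in edgeR, where 4.81% of all genes did. The lowest library of a gene was aged-SP replicate 1 for 23 of the 45 genes, young-SP replicate 4 for 17, and aged-SP replicate 4 for 4. Among all 17013 genes tested, the same libraries were lowest for 3957, 2984 and 3253 genes.

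**Figure D3:**
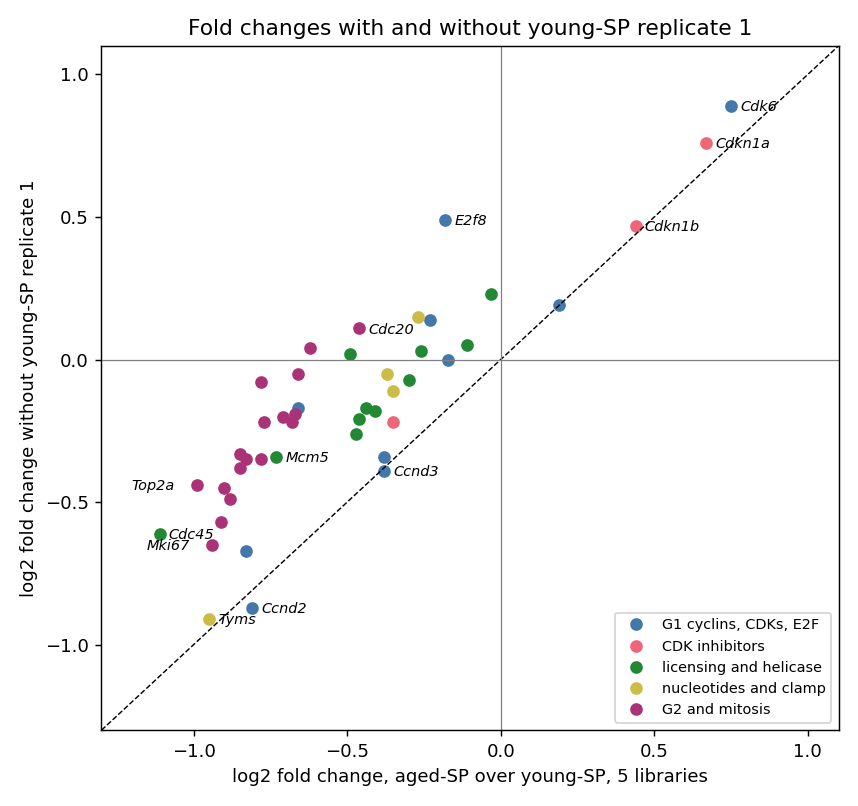
Log2 fold change of each of the 45 genes, aged-SP over young-SP, with all 5 libraries (horizontal axis) and without young-SP replicate 1 (vertical axis), coloured by role, with a dashed line of equality. The genes of G2 and mitosis lie above the line, with a median of -0.78 with all libraries and -0.33 without that one, while Tyms, Ccnd2 and the CDK inhibitors lie near the line.

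Among the 10 genes of G1, 8 had a lower aged-SP mean, with a median log2 fold change of -0.30. Without young-SP replicate 1, 5 of 10 did, beside 49.9% of all genes, with a median of -0.08. The D-type cyclins, which activate Cdk4 and Cdk6 in response to growth signals, differed in direction. Ccnd2, on chr6:127125162-127152193, was at 43.8 and 32.2 CPM in the aged-SP libraries and at 62.1, 65.9 and 72.3 CPM in young-SP replicates 1, 2 and 4. All its young-SP values lay above both aged-SP values, and the highest was not in young-SP replicate 1. The log2 fold change of Ccnd2 was -0.81 (SE 0.16), with an adjusted p of 0.0978 in edgeR and 0.00172 in DESeq2, and it was -0.87 without young-SP replicate 1. Ccnd3 was at 53.3 and 75.9 CPM against 84.4, 80.5 and 87.7 CPM, with the lowest value in aged-SP replicate 1 and no overlap. Its log2 fold change of -0.38 (SE 0.17) had an adjusted p of 0.292 in edgeR, and was -0.15 with aged-SP replicate 1 left out and -0.66 with aged-SP replicate 4 left out. Ccnd1 was at 112 and 67.0 CPM against 79.9, 67.5 and 88.2 CPM. Here the aged-SP libraries were the highest and the lowest of the 5, and the log2 fold change was 0.19 (SE 0.24) with both, -0.23 without aged-SP replicate 1 and 0.51 without aged-SP replicate 4.

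The kinase partners of these cyclins also differed from one another. Cdk4 had the highest level per length of the 45 genes, at 77.3 FPKM on average, and was at 192 and 235 CPM in the aged-SP libraries against 295, 287 and 247 CPM in the young-SP libraries. The groups did not overlap, and the log2 fold change of -0.38 (SE 0.14) had an adjusted p of 0.234 in edgeR and was -0.24 without aged-SP replicate 1. Cdk4 exons overlap Tspan31 and share 17% of their 50-base stretches with other exons, so that its count is uncertain. Cdk6 was at 60.0 and 32.0 CPM against 32.6, 27.7 and 21.5 CPM. Only aged-SP replicate 1 lay above all young-SP values. The log2 fold change of 0.75 (SE 0.31) was 0.23 without it and 1.14 without aged-SP replicate 4. Ccne2, an E-type cyclin that works with Cdk2 at the entry to S phase, was at 6.53 and 8.38 CPM against 16.2, 15.1 and 8.48 CPM. Its values in aged-SP replicate 4 and young-SP replicate 4 were nearly equal. The log2 fold change of Ccne2 was -0.83 (SE 0.33), with an adjusted p of 0.260 in edgeR, and -0.67 without young-SP replicate 1. The other G1 genes, Ccne1, Cdk2, E2f1 and E2f8, had overlapping groups and log2 fold changes between -0.66 and -0.17, which without young-SP replicate 1 lay between -0.17 and 0.49.

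The CDK inhibitors had a median log2 fold change of 0.44, and of 0.47 without young-SP replicate 1. Cdkn1b, which encodes p27 and had the third highest level per length of the 45 genes at 36.2 FPKM, was at 208 and 184 CPM in the aged-SP libraries. In the young-SP libraries Cdkn1b was at 154, 142 and 138 CPM, so that both aged-SP values lay above all young-SP values. Its log2 fold change of 0.44 (SE 0.10) had an adjusted p of 0.121 in edgeR and 0.0186 in DESeq2. Cdkn1a, which encodes p21, a target of p53, was at 19.0 and 21.1 CPM against 14.4, 10.4 and 13.1 CPM. The groups did not overlap here either, and the log2 fold change of 0.67 (SE 0.18) had an adjusted p of 0.152 in edgeR and 0.0533 in DESeq2. Cdkn2c, which encodes p18 and inhibits Cdk4 and Cdk6, was at 21.8 and 29.6 CPM against 38.7, 31.6 and 27.7 CPM. Its groups overlapped, with a log2 fold change of -0.35 (SE 0.21) that ranged from -0.59 to -0.14 when single libraries were left out.

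**Figure D4:**
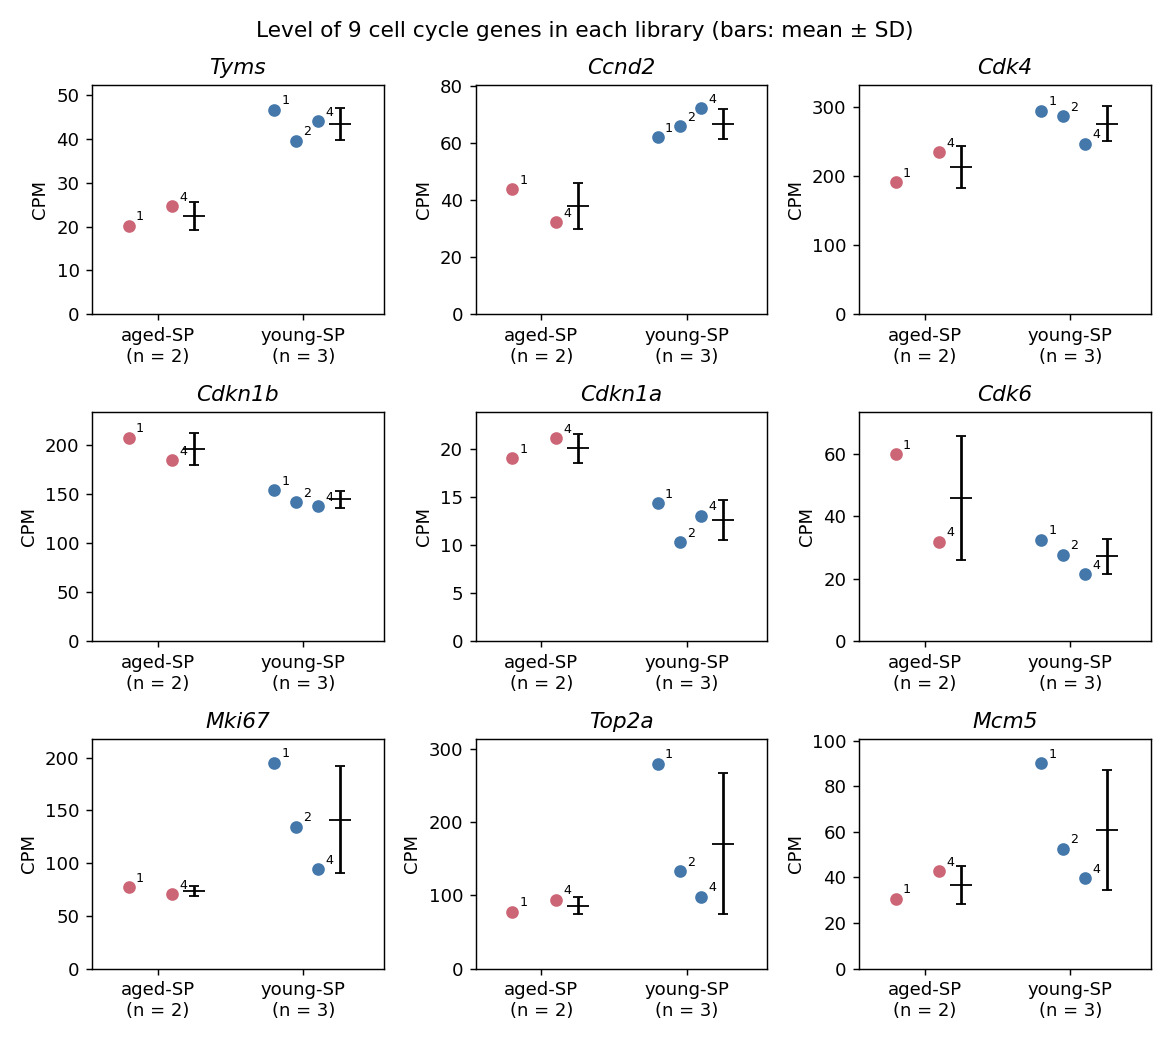
CPM of 9 cell cycle genes (vertical axis, from 0) in each aged-SP and young-SP library, with the replicate number beside each point and the mean ± SD of each group as a bar. Tyms, Ccnd2 and Cdk4 had both aged-SP points below all young-SP points, and Cdkn1b and Cdkn1a had them above, while the young-SP spread of Top2a and Mcm5 was set by replicate 1.

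All 4 genes of nucleotide supply and the sliding clamp had a lower aged-SP mean, with a median log2 fold change of -0.36. Without young-SP replicate 1, 3 of 4 did, with a median of -0.08. Tyms encodes thymidylate synthase, which makes the thymidine nucleotide for DNA, and lies on chr5:30058202-30073617. It was at 20.2 and 24.6 CPM in the aged-SP libraries (22.4 ± 3.13, SD, n = 2) and at 46.7, 39.6 and 44.1 CPM in the young-SP libraries (43.4 ± 3.60, SD, n = 3). The young-SP libraries were close to each other here, and the groups were well apart. Tyms had the smallest p of the 45 genes, with a log2 fold change of -0.95 (SE 0.14) and an adjusted p of 0.0734 in edgeR and 1.16e-05 in DESeq2. Without young-SP replicate 1 its log2 fold change was -0.91 with an adjusted p of 0.0422 in edgeR.

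The other genes of this role followed young-SP replicate 1 more than the group. Pcna, the sliding clamp of DNA polymerase, was at 107 and 106 CPM against 181, 116 and 111 CPM. Its groups did not overlap, but the log2 fold change of -0.35 (SE 0.23) was -0.11 without young-SP replicate 1, and 19.1% of its exon stretches occur elsewhere. The large and small subunits of ribonucleotide reductase, which makes deoxynucleotides, are encoded by Rrm1 and Rrm2. Rrm1 was at 64.8 and 82.8 CPM against 135, 84.3 and 67.2 CPM, with a log2 fold change of -0.37 (SE 0.31) that was -0.05 without young-SP replicate 1. Rrm2 was at 20.4 and 16.3 CPM against 33.7, 18.7 and 14.1 CPM, with a log2 fold change of -0.27 (SE 0.39) that was 0.15 without young-SP replicate 1. The lowest value of Rrm2 was in young-SP replicate 4, so that the groups overlapped.

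The 11 genes of licensing and the helicase all had a lower aged-SP mean, with a median log2 fold change of -0.44, and 7 of 11 did without young-SP replicate 1, with a median of -0.17. The smallest adjusted p among them was 0.312 in edgeR. All of them were highest in young-SP replicate 1, and 6 were lowest in aged-SP replicate 1 and 5 in young-SP replicate 4. Mcm5, a subunit of the MCM helicase whose promoter holds the overlapping E2F words shown above, was at 30.8 and 42.7 CPM against 90.1, 52.7 and 39.6 CPM. Its young-SP replicate 4 lay between the aged-SP libraries, and the log2 fold change of -0.73 (SE 0.38) was -0.34 without young-SP replicate 1. Mcm4 was at 44.6 and 51.1 CPM against 87.4, 61.2 and 48.9 CPM, with a log2 fold change of -0.46 (SE 0.25) that was -0.21 without young-SP replicate 1. Mcm7 had the highest level per length of this role, at 19.7 FPKM, and was at 80.3 and 86.7 CPM against 111, 90.6 and 69.0 CPM. For Mcm7 the lowest library was young-SP replicate 4, and its exons overlap Ap4m1 and Cops6. Its log2 fold change was -0.11 (SE 0.20), and 0.05 without young-SP replicate 1.

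Orc1 and Cdc45 act before and after the helicase is loaded. Orc1, a subunit of the origin recognition complex, was at 3.33 and 3.84 CPM against 6.44, 4.02 and 4.47 CPM. It was the only gene of this role whose groups did not overlap, with a log2 fold change of -0.47 (SE 0.29) that was -0.26 without young-SP replicate 1, and it had the lowest level per length of the 45 genes at 1.27 FPKM. Cdc45, which joins the helicase when it starts to unwind DNA, was at 4.23 and 6.27 CPM against 18.3, 9.75 and 6.08 CPM. It had the lowest log2 fold change of the 45 genes, -1.11 (SE 0.51), and this was -0.61 without young-SP replicate 1. The licensing factors Cdc6 and Cdt1, the helicase subunits Mcm2, Mcm3 and Mcm6, and Gins1 had overlapping groups and log2 fold changes between -0.49 and -0.03. Without young-SP replicate 1 these lay between -0.18 and 0.23, with values above 0 for Cdc6 (0.02), Cdt1 (0.23) and Mcm6 (0.03).

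The 17 genes of G2 and mitosis all had a lower aged-SP mean, with a median log2 fold change of -0.78 and a range of -0.99 to -0.46. Their summed level was 347 and 400 CPM in the aged-SP libraries and 1050, 579 and 388 CPM in young-SP replicates 1, 2 and 4. The sum in young-SP replicate 4 thus lay between the aged-SP sums, and all 17 genes were highest in young-SP replicate 1. Without that library 15 of 17 had a lower aged-SP mean and the median was -0.33. Epithelium and leukocyte markers were also highest or high in that library, as given above, and their part in this difference was not tested.

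Mki67, the gene of the proliferation antigen Ki-67, on chr7:135689784-135716361, was at 77.0 and 70.4 CPM in the aged-SP libraries and at 195, 135 and 94.5 CPM in the young-SP libraries. The groups did not overlap, and the young-SP values spread widely around their mean (141 ± 50.7, SD, n = 3). The log2 fold change of Mki67 was -0.94 (SE 0.31), with an adjusted p of 0.201 in edgeR and 0.0342 in DESeq2, and it was -0.65 without young-SP replicate 1. Top2a, the topoisomerase that untangles DNA before chromosomes separate, had the highest level per length of this role, at 15.1 FPKM. It was at 77.6 and 93.9 CPM against 280, 133 and 98.3 CPM, with no overlap but only a small gap between aged-SP replicate 4 and young-SP replicate 4. Its log2 fold change was -0.99 (SE 0.46), with an adjusted p of 0.321 in edgeR and 0.147 in DESeq2, and it was -0.44 without young-SP replicate 1.

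Birc5, which encodes survivin of the chromosomal passenger complex, was at 10.4 and 11.1 CPM against 31.0, 17.5 and 11.5 CPM. Its groups were separate by a narrow margin, with a log2 fold change of -0.90 (SE 0.43) that was -0.45 without young-SP replicate 1. Ccnb2, a B-type cyclin of Cdk1, was at 9.07 and 11.1 CPM against 27.3, 18.6 and 11.1 CPM. Its value in aged-SP replicate 4 was slightly above that in young-SP replicate 4, and the log2 fold change of -0.91 (SE 0.39) was -0.57 without young-SP replicate 1. The remaining genes of this role, among them Cdk1, the mitotic kinases Aurka, Aurkb and Plk1, the checkpoint genes Bub1 and Bub1b and the spindle motor Kif11, had overlapping groups. Their log2 fold changes lay between -0.88 and -0.46, and without young-SP replicate 1 between -0.49 and 0.11. Aurka had the highest ratio of young-SP replicate 1 to the mean of replicates 2 and 4 of the 45 genes, at 2.90.

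**Figure D5:**
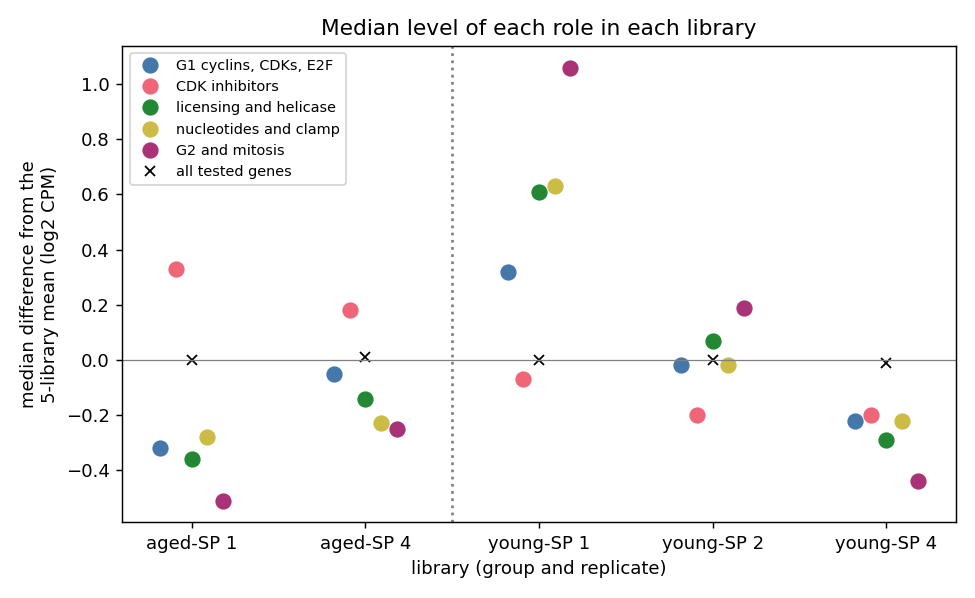
Median over the genes of each role of the difference of log2 CPM from the 5-library mean (vertical axis), in each library (horizontal axis), with all tested genes as crosses. G2 and mitosis genes had a median of 1.06 in young-SP replicate 1, 0.19 in replicate 2 and -0.44 in replicate 4, against -0.51 and -0.25 in the aged-SP libraries.

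The young-SP libraries thus differed among themselves in the mitosis genes by more than the aged-SP libraries did. The median difference from the 5-library mean, on the log2 CPM scale, was 1.06, 0.19 and -0.44 in young-SP replicates 1, 2 and 4, and -0.51 and -0.25 in aged-SP replicates 1 and 4. For licensing genes the same order held with smaller values, from -0.36 in aged-SP replicate 1 to 0.61 in young-SP replicate 1. Only the CDK inhibitors had medians in the aged-SP libraries (0.33 and 0.18) above those of all young-SP libraries (-0.07, -0.20 and -0.20). These are medians of 3 genes, of which Cdkn2c did not share the pattern, at -0.43 and 0.01 against 0.40, 0.11 and -0.08. All genes tested had medians between -0.01 and 0.01 in every library.

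Further genes of the same pathways were taken from lists set by function. Of 42 other replication genes, 40 had a lower aged-SP mean (median log2 fold change -0.30), 38 were highest in young-SP replicate 1, and without that library 26 were lower (median -0.06). None passed the adjusted threshold in edgeR, 2 of 42 were lower at an unadjusted p under 0.05 (9.36% of all genes) and none was higher (9.62%), and DESeq2 called none (7.58%). Orc3, another subunit of the origin recognition complex, was at 59.7 and 55.2 CPM against 69.4, 75.6 and 68.2 CPM, with a log2 fold change of -0.31 (SE 0.09). Unlike most replication genes it was highest in young-SP replicate 2, and its groups did not overlap. Gins3 (log2 fold change -0.67), Pola1 (-0.61) and Pole2 (-0.68), of the helicase complex and the replicative polymerases, were highest in young-SP replicate 1. Without that library Gins3 was at -0.53, Pola1 at -0.37 and Pole2 at -0.51.

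Of 50 other mitosis genes, 49 had a lower aged-SP mean (median log2 fold change -0.66), 49 were highest in young-SP replicate 1, and without that library 42 were lower (median -0.21). None passed the adjusted threshold in edgeR, 4 of 50 were lower at an unadjusted p under 0.05 (9.36% of all genes) and none was higher (9.62%), and DESeq2 called 1, Nuf2, as lower (3.89%). Nuf2, of the complex that joins kinetochores to microtubules, was at 5.38 and 8.06 CPM against 22.9, 16.1 and 9.28 CPM. Its groups did not overlap, and its log2 fold change of -1.26 (SE 0.43) was -0.93 without young-SP replicate 1. The motor gene Kif14 (log2 fold change -0.90), the condensin gene Ncapd2 (-0.66) and the checkpoint gene Bub3 (-0.27) were also separate between the groups. Without young-SP replicate 1, Kif14 was at -0.70, Ncapd2 at -0.41 and Bub3 at -0.22.

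Of 25 other regulators of G1 and S phase that could be tested, 16 had a lower aged-SP mean (median log2 fold change -0.09). With young-SP replicate 1 left out, 13 of 25 were lower (median -0.03), beside 49.9% of all genes. With all libraries none passed the adjusted threshold in edgeR. At an unadjusted p under 0.05, 2 of 25 were higher (9.62% of all genes) and none lower (9.36%). DESeq2 called 1, Mycn, as higher (3.69% of all genes). Mycn, which encodes the growth-promoting transcription factor N-Myc, was at 53.8 and 42.7 CPM in the aged-SP libraries against 8.57, 3.43 and 1.74 CPM in the young-SP libraries. The groups were far apart, with young-SP replicate 1 nearest to the aged-SP libraries. Its log2 fold change of 3.39 (SE 0.61) had an adjusted p of 0.0867 in edgeR and 4.38e-07 in DESeq2, and without young-SP replicate 1 it was 4.20 with an adjusted p of 0.0134 in edgeR. Myc, its relative, was at 77.6 and 48.2 CPM against 85.3, 83.9 and 95.0 CPM, with a log2 fold change of -0.48 (SE 0.21) and an adjusted p of 0.298 in edgeR. The value for Myc was -0.87 without aged-SP replicate 1 and -0.18 without aged-SP replicate 4. Cdkn2b, an inhibitor of Cdk4 and Cdk6, had a low level, at 4.53 and 1.66 CPM against 1.19, 0.237 and 0.734 CPM. Its log2 fold change of 2.10 (SE 0.71) was 1.20 without aged-SP replicate 1 and 2.67 without young-SP replicate 1. Cks1b, a partner of the CDKs, was at 23.8 and 21.7 CPM against 46.5, 31.2 and 26.1 CPM, with a log2 fold change of -0.61 (SE 0.26) that was -0.35 without young-SP replicate 1.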

How the data were processed

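RNA of whole uteri was analysed in 5 libraries, 2 of the aged-SP and 3 of the young-SP group, with conditions taken from the sample labels. The count of each gene was deposited by the authors without normalization, and the submitters' processing notes name HISAT2 2.1.0, Bowtie2 2.2.3 and HTSeq 0.6.0. The genome build was not given in the sources used here, and the positions of 44 of the 45 genes equal those in GENCODE M21 on GRCm38. The FPKM values deposited by the authors were used only to compare levels between genes. The deposited table also holds a mean signal, a log2 fold change and a p-value per gene from the authors' own comparison, which were not used, and the number of unused per-sample columns was 0.

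Counts were filtered with filterByExpr, scaled by TMM and compared with glmQLFit and glmQLFTest in edgeR 4.0.16 (R 4.3.3), with p-values adjusted over the 17013 genes kept. A prior count of 2 was used for log2 CPM. DESeq2 1.42.0, limma-voom (limma 3.58.1), other scalings and filters, a replicate block and leaving out each library were alternatives. Total counts lay between 15071914 and 16728601. Python 3.11.15 was used with pandas 2.3.3, numpy 2.4.6 and matplotlib 3.10.9. Promoters were RefSeq sequences of GRCm38.p6.

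The 45 genes, the other lists and the alternatives were chosen with earlier results of these data known. Values per library are given for the 4 genes with the smallest unadjusted p and the gene with the highest mean FPKM in each role, and for all CDK inhibitors and D-type cyclins. Of each other list, the 4 genes with the smallest unadjusted p are named. The comparison of groups that do not overlap without young-SP replicate 1 was added after the data had been seen. Markers were summed for epithelium, glands, stroma, myometrium, endothelium, leukocytes, ovary, oviduct, and vagina and cervix. Summed gland markers lay between 39.3 and 4071 CPM, stroma between 4034 and 5995, myometrium between 8502 and 13530, ovary between 21.5 and 70.9, and oviduct between 35.9 and 235 CPM.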

Additional observations from a re-analysis of the deposited data

How the results depend on the processing

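Scaling by DESeq2 size factors or library size alone, limma-voom, and a minimum of 10 counts in every library left each count over the 45 genes within 1.5 times its value. Among all genes tested, those past both an adjusted p of 0.05 and a log2 fold change of 1 in size numbered 25, but 632 with DESeq2's Wald test, 203 with no filter on low counts, and 1 to 578 when 1 library was left out (1 without aged-SP replicate 1, 49 without aged-SP replicate 4, 578, 3 and 2 without young-SP replicates 1, 2 and 4). Cell cycle genes with an adjusted p under 0.05 numbered 0 (0.153% of all genes), but 4 with DESeq2 (7.58%). With no filter there was 1, Tyms (adjusted p 0.0404 in edgeR), beside 1% of all genes. When 1 young-SP library was left out the number was 0 to 1, and without young-SP replicate 1 4.81% of all genes passed. Those lower at an unadjusted p under 0.05 numbered 5, but 11 with DESeq2, 10 with no filter and 3 to 19 when 1 young-SP library was left out. The shares of all genes at this threshold were not computed for DESeq2 or with no filter, so those counts have no comparison. Genes with a higher aged-SP level and no overlap numbered 2 (beside 19.5% of all genes), and 4 without young-SP replicate 1 (beside 28.5%). The median log2 fold change of the 45 genes lay between -0.78 and -0.19 when 1 library was left out, and the number with a lower aged-SP mean between 31 and 41. Where 1 aged-SP library remained, it was assumed to vary like the young-SP libraries. Over all 45 genes, 10 changed sign without young-SP replicate 1 (Cdc20, Cdc6, Cdk2, Cdt1, E2f1, E2f8, Mcm6, Mcm7, Plk1 and Rrm2), 3 without aged-SP replicate 1 (Ccnd1, Cdt1 and E2f1) and 1 with limma-voom (E2f8). By rule 42 genes were named, 22 of the 45 and 20 of the other lists. None of them passed the adjusted threshold in the main edgeR fit, so that none could lose it. Of their 503 results under alternatives, 479 kept direction and stayed short of the threshold, 21 newly passed it, and 3 changed sign. The 3 were Ccnd1 without aged-SP replicate 1 (-0.23), and Mcm7 (0.05) and Rrm2 (0.15) without young-SP replicate 1. When 1 library was left out, their log2 fold changes ranged from -0.23 to 0.51 for Ccnd1, from -0.28 to 0.05 for Mcm7 and from -0.52 to 0.15 for Rrm2. The cause was not tested.

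Replicate numbers 1 and 4 occur in both groups. The deviations of same-numbered libraries correlated at 0.152 for number 1 and 0.136 for number 4, and with only 2 pairs the libraries share only a number. A replicate block gave 2 called genes among all those tested and 0, 3 and 3 of the 45 genes with an adjusted p under 0.05, lower and higher at an unadjusted p under 0.05. The shares of all genes at an unadjusted p were not computed under that block, so its unadjusted counts have no comparison.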

Other observations

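Genes of the p53 response and the DNA damage checkpoint, which can hold cells before division, had no common direction with all 5 libraries. Of 18 such genes, 9 had a lower and 9 a higher aged-SP mean (median log2 fold change 0.01). With young-SP replicate 1 left out, 5 of 18 were lower, beside 49.9% of all genes, and the median was 0.10. With all libraries, none of the 18 passed the adjusted threshold in edgeR, where 0.153% of all genes did. At an unadjusted p under 0.05, 2 of 18 were higher and 1 lower, beside 9.62% and 9.36% of all genes, and DESeq2 called 2 as higher, Trp53inp1 and Gadd45a (3.69% of all genes). Without young-SP replicate 1, 2 of the 18, Gadd45b and Brca2, passed the adjusted threshold in edgeR as higher, beside 4.81% of all genes. Gadd45a, a growth arrest gene induced by DNA damage, was at 47.5 and 21.6 CPM in the aged-SP libraries, and between 9.87 and 9.95 CPM in the 3 young-SP libraries. The aged-SP libraries differed from each other by more than the young-SP libraries did, and the log2 fold change of 1.80 (SE 0.33) was 1.12 without aged-SP replicate 1. Trp53inp1, a p53 target that promotes arrest and cell death, was at 316 and 238 CPM against 169, 159 and 145 CPM, with a log2 fold change of 0.81 (SE 0.15). Chek1, the checkpoint kinase that guards S phase, was highest in young-SP replicate 1. Its log2 fold change of -0.84 (SE 0.31) was -0.60 without that library. Atr, which activates Chek1, had a log2 fold change of 0.30 (SE 0.14), and of 0.14 without aged-SP replicate 1.

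Regulators of hormone-driven growth of the uterus were also split, with 12 of 24 genes lower and 12 higher in the aged-SP group. With young-SP replicate 1 left out, 11 of 24 were lower, beside 49.9% of all genes. With all libraries none passed the adjusted threshold in edgeR. At an unadjusted p under 0.05, 7 of 24 were lower and 5 higher, beside 9.36% and 9.62% of all genes, and DESeq2 called 4 lower and 3 higher, beside 3.89% and 3.69%. Without young-SP replicate 1, 5 of the 24 passed the adjusted threshold in edgeR, beside 4.81% of all genes, namely Ihh, Ptch1, Fgf1 and Areg as lower and Greb1 as higher. Greb1, an estrogen-induced gene, was at 40.9 and 60.3 CPM against 17.5, 14.8 and 10.6 CPM. Its groups did not overlap, with a log2 fold change of 1.82 (SE 0.26) and an adjusted p of 0.0734 in edgeR. Ihh, the epithelial signal that acts on the stroma under progesterone, was at 7.98 and 11.5 CPM against 20.8, 45.3 and 34.6 CPM, with a log2 fold change of -1.78 (SE 0.38). Igf1, a growth factor made by the stroma, was at 389 and 357 CPM against 615, 945 and 637 CPM, with a log2 fold change of -0.97 (SE 0.22). Klf9, a partner of the progesterone receptor, was at 209 and 184 CPM against 121, 138 and 139 CPM, with a log2 fold change of 0.57 (SE 0.11). For Ihh, young-SP replicate 1 was the young-SP library nearest to the aged-SP libraries, and the log2 fold change was -2.05 without it. Only 1 of the 24 genes was highest in young-SP replicate 1, beside 20.6% of all genes tested.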
